A study of Mus musculus with 3 samples.

Results

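The genes described here encode subunits of oxidative phosphorylation (OXPHOS), the respiratory chain and ATP synthase of mitochondria. They were chosen by symbol alone: names that start with Nduf (assembly factors named Ndufaf left out), Uqcr or Atp5, nuclear Cox4 to Cox8 genes, Sdha to Sdhd, and the protein-coding genes of the mitochondrial genome, with names ending in -ps left out. This gave 102 of the 46603 genes in the files, of which 89 lie in the nuclear and 13 in the mitochondrial genome. By textbook function 96 of them are subunits, 4 are annotated pseudogenes or retrocopies (Cox6c2, Ndufa11b, Ndufb4c and Ndufs6b) and 2 are associated factors (Atp5s and Cox7a2l).

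RNA-Seq was done on polyadenylated RNA of KO-actin cells, fibroblasts of the mouse embryo (MEFs) that lack their own β-actin and express a β-actin tagged with a nuclear localization signal (NLS). All 3 libraries, replicates 1 to 3, belong to this 1 condition, so the comparisons are between genes and between libraries, and none is with KO or wild-type cells. The labels do not say whether the replicates are separate cultures, so the spread between them may be technical. The strain, the age of the embryos and the promoter that drives the transgene are not given in the labels.

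OXPHOS moves electrons from NADH through complex I, or from succinate through complex II, to ubiquinone, and on through complex III and cytochrome c to complex IV, which reduces oxygen. The proton gradient that this builds drives complex V, the ATP synthase. Complex II is encoded wholly in the nucleus, whereas complexes I, III, IV and V are built from subunits of both genomes, and some nuclear subunits of complex IV come in versions known from muscle, lung or testis.

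Library totals were 49932446, 49587453 and 44383636 counts for replicates 1 to 3. Levels are given as CPM (a gene's counts scaled to a common library total) and, between genes, as CPM per kilobase of the principal mRNA. Detection was set at more than 3 counts, since a count of 0 allows up to 3, and this limit holds for counting error only. Actb, the targeted gene, had 1078, 1107 and 1070 CPM in replicates 1 to 3, and its counts cannot tell transgene RNA from RNA of the locus. All 10 fibroblast markers had at least 1 CPM in every library, with Vim at 4562 ± 210 CPM (SD, n = 3). Of 8 striated muscle markers only Des did, at 10.4 ± 0.882 CPM (SD, n = 3), while Ckm, Myh4 and Myog had no count. No male germ cell marker of 6 reached 1 CPM, and Prm1 was the only one above 3 counts in every library.

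Sequence is shown first for mitochondrial genes with annotated nuclear copies. Mouse chromosome 1 carries a block of annotated pseudogenes that copies a stretch of the mitochondrial genome. Bases 196 to 255 of the mt-Co2 mRNA, which encodes the copper-binding subunit 2 of complex IV, are set below beside the same bases of the copies Gm28661 (chr1:24614885-24615565) and Gm13341 (chr2:22587291-22587962), from the GENCODE M21 transcripts on GRCm38. Capitals mark bases that differ from the mitochondrial gene.
mt-Co2: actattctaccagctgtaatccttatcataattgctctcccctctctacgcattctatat
Gm28661: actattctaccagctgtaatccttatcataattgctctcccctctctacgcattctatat
Gm13341: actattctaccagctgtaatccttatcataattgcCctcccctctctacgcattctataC
Counted from the 5′ end of the mt-Co2 mRNA, the differences of Gm13341 in this stretch are T231C and T255C. The first 40 bases of mt-Nd3, a membrane subunit of complex I, are shown with its copy Gm28438 (chr1:24612775-24613119), whose one difference over 345 aligned bases is T3C.
mt-Nd3: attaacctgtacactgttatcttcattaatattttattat
Gm28438: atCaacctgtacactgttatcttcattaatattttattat
Gm28661 was identical to mt-Co2 over 681 aligned bases, Gm28437 to mt-Co3 over 783, Gm10925 to mt-Atp6 over 678 and Gm10222 to mt-Nd4l over 294. Gm28439 was identical to the first 876 of the 1378 bases of mt-Nd4.

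As a group, OXPHOS genes made up 1.63% ± 0.0510 of all counts (SD, n = 3). The 89 nuclear genes held 1.07% ± 0.0340 and the 13 mitochondrial genes 0.565% ± 0.0797. All 13 mitochondrial and 81 of the 89 nuclear genes exceeded 3 counts in every library. The 8 nuclear exceptions were the isoforms Cox4i2, Cox6b2, Cox8b, Cox8c and Ndufa4l2 and the pseudogenes Cox6c2, Ndufa11b and Ndufs6b, and for 6 of these no library exceeded 3 counts, namely Cox4i2, Cox6b2, Cox8b, Cox8c, Ndufa11b and Ndufs6b. Without all pseudogenes, tissue isoforms and associated factors, 75 nuclear subunits remained, of which 74 had over 10 CPM per kilobase and 60 lay between 50 and 250.

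**Figure D1:**
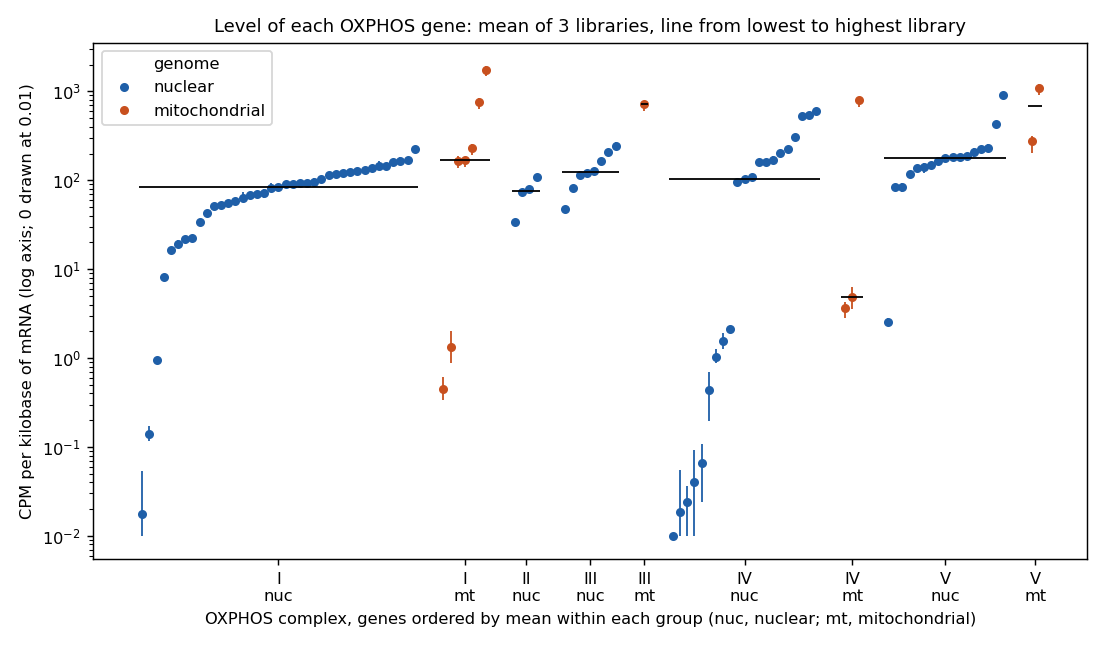
Level of each of the 102 OXPHOS genes as CPM per kilobase of mRNA on a log axis, by complex and genome, with genes ordered by their mean (point) over 3 libraries, a vertical line from the lowest to the highest library, and a horizontal line at the median of each group. Most nuclear genes lie near 100, a low tail of isoforms and pseudogenes appears in complexes I and IV, and 4 mitochondrial genes lie under 5.

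Among the complexes, nuclear genes of ATP synthase had the highest median per kilobase of principal mRNA when all genes of the name rule were counted. Their median was 177 ± 4.73 CPM per kilobase (SD over libraries, n = 3; 17 genes), followed by complex III at 127 ± 3.81 (8 genes), complex IV at 103 ± 2.63 (21 genes, Ndufa4 counted here), complex I at 85.7 ± 6.56 (39 genes) and complex II at 76.7 ± 0.201 (4 genes). This order was the same in all 3 libraries. Complexes I and II differed little, with 79.3 against 76.9 in replicate 1, 92.4 against 76.5 in replicate 2 and 85.4 against 76.6 in replicate 3. The place of complex IV rests on its low isoforms, since without pseudogenes, associated factors and tissue isoforms its median was 205 and that of complex V 179.

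Complex V was led by its catalytic subunit. Atp5b, the β subunit, had 913, 920 and 927 CPM per kilobase in replicates 1 to 3, and at 1763 ± 13.1 CPM (SD, n = 3) was the highest nuclear OXPHOS gene and the 20th of all genes by mean CPM. Its partner in the catalytic hexamer, Atp5a1, had 223, 230 and 222 CPM per kilobase. The order of this pair was the same in every library, and the gap was far larger than the spread between them. Atp5g3, one of 3 genes for the rotor ring subunit c, had 411, 443 and 428 CPM per kilobase, and Atp5d, the δ subunit of the central stalk, 221, 254 and 219. Atp5l, a membrane subunit at the dimer interface, was among the lowest with 74.7, 92.7 and 82.8, but other annotated genes held 68.5% of the 50-base windows of its mRNA. Atp5mpl, a small membrane protein of the complex, had 82.7, 86.7 and 80.0. Atp5s, an associated factor and not a subunit, had 2.81, 2.43 and 2.41.

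Complex I genes were lower and uneven. Ndufb9, an accessory subunit of the membrane arm, was the highest with 213, 230 and 227 CPM per kilobase, followed by Ndufb8 at 169 ± 9.95 and Ndufb7 at 164 ± 18.1 (SD, n = 3). The 3 lowest rows were Ndufa11b, Ndufs6b and Ndufb4c, all annotated copies and none with a mean above 0.948 CPM per kilobase. Chosen after the values were seen, the lowest true subunits were Ndufab1, the mitochondrial acyl carrier protein, at 7.27, 8.75 and 8.18, Ndufb4 at 16.9, 17.3 and 15.2, and Ndufb2 at 18.2, 18.8 and 21.1. Ndufab1 was measured against a principal mRNA of 3479 bases, of which 468 are coding. Without division by length it had 28.1 ± 2.60 CPM (SD, n = 3), above Ndufb4 at 16.0 ± 1.09 and Ndufb2 at 8.82 ± 0.688 but below the complex I median of 64.4. For Ndufb4, 36.98% of windows occur in other genes. For Ndufb2, exons of overlapping genes on either strand cover 50.3% of the mRNA, and their part in its low counts was not tested.

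Complex II showed little spread between libraries, with no subunit over 1.08-fold from its lowest to its highest. Sdha, the flavoprotein that oxidizes succinate, had 80.6, 80.4 and 78.9 CPM per kilobase. Sdhb, the iron-sulfur subunit, had 106, 113 and 104. The membrane anchors Sdhd and Sdhc had 73.4 ± 0.905 and 33.9 ± 0.221 (SD, n = 3), so per kilobase of mRNA they were below both catalytic subunits in every library. Sdhc has a principal mRNA of 3171 bases with a coding part of 507, and before division by length it stood at 108 ± 0.699 CPM, above Sdhd at 90.3 ± 1.12. The coding part is 477 bases in Sdhd, 846 in Sdhb and 1992 in Sdha. Per kilobase of coding length the anchors were above both catalytic subunits, so this order depends on the length used.

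In complex III the 3 highest nuclear genes per kilobase were small subunits. Uqcr11 had 217, 271 and 236, Uqcr10 195, 223 and 209, and Uqcrh, the hinge protein, 159, 162 and 176. The lowest was Uqcrc2, a core protein, at 47.5 ± 1.86, then Uqcrfs1, the Rieske iron-sulfur protein, at 82.7 ± 2.07, and Uqcrq at 114 ± 12.6 (SD, n = 3). Uqcrq has a principal mRNA of 1521 bases with a coding part of 246. Before division by length it had 174 ± 19.1 CPM, above Uqcr11 at 108 ± 12.2 (SD, n = 3). In CPM the core protein Uqcrc1 was the highest nuclear gene of the name rule here at 212, and Uqcrb the lowest at 64.1. Uqcrc2 had 90.1 CPM, near Uqcr10 at 90.6 and Uqcrh at 90.8, so this order depends on the length used. Exons of other genes cover 26.6% of the Uqcrc2 mRNA. Cyc1, the catalytic cytochrome c1 of this complex, is missed by the name rule. It had a mean of 205 per kilobase, or 311 ± 18.3 CPM without division by length (SD, n = 3).

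Complex IV was divided into abundant genes and genes at low or no count. Cox6a1 had 577, 642 and 585 CPM per kilobase, Cox4i1 517, 562 and 542, and Cox8a 507, 572 and 517. These are the general forms of subunits that surround the mitochondrially encoded core. Per kilobase of mRNA Cox6a1 was above both others in every library, while the ranges of Cox4i1 and Cox8a overlapped. Before division by length Cox4i1 was the highest, with 386, 418 and 404 CPM against 330, 367 and 334 for Cox6a1. The order of these genes therefore depends on the length used. Cox6c had 307 ± 10.9 and Ndufa4, first assigned to complex I and now placed in complex IV, had 227 ± 7.88 (SD, n = 3).

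In 9 of 12 isoform or paralog pairs the second member was lower by 73.4-fold or more per kilobase, and these 9 include every heart, muscle, lung or testis form examined. Cox6a2, the heart and muscle form of subunit VIa, had 71, 66 and 69 counts, against 16464, 18176 and 14818 for Cox6a1. The mean ratio per kilobase was 285-fold (log2 ratio 8.16 ± 0.18, SD, n = 3). Cox7a1, the heart and muscle form of subunit VIIa, had 38, 28 and 22 counts, and Cox7a2 exceeded it 104-fold (log2 ratio 6.71 ± 0.37, SD, n = 3). Cox7b2, known from testis, had 34, 26 and 21 counts and was exceeded 92.7-fold by Cox7b (log2 ratio 6.53 ± 0.30, SD, n = 3). All 3 second members had over 3 counts throughout, and none overlapped its partner.

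The remaining isoforms were at or near 0. Cox4i2, the lung form of subunit IV, had 0, 1 and 3 counts, and Cox4i1 stood above it by a ratio of 14134 per kilobase with a 95% counting interval from 5520 to 51873. Cox6b2, the testis form of subunit VIb, had 1, 1 and 0 counts and a ratio of 6374 (interval 1765 to 52634). Ndufa4l2, known as a hypoxia-inducible paralog of Ndufa4, had 3, 5 and 1 counts and a ratio of 3382 (interval 1782 to 7397). Cox8b, the heart and muscle form of subunit VIII, had 1 count in replicate 1 and none in the others. Cox8c, the testis form, had none in any library, so Cox8a was at least 11703-fold higher against a floor of 3 counts over the group. Cox6c2, a copy of Cox6c, had 8, 5 and 2 counts, and 52.7% of its windows occur in other genes. These intervals use the exact Poisson limits of the low gene alone, and no test was made for pairs in which a library had 3 counts or fewer.

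**Figure D2:**
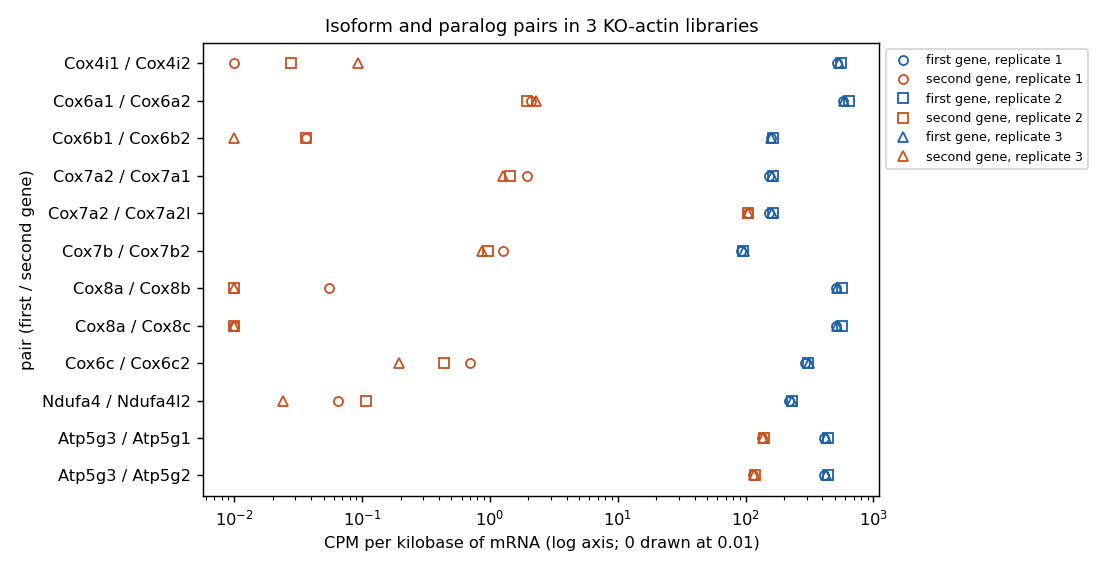
CPM per kilobase of mRNA (log axis, 0 drawn at 0.01) in 3 libraries (circle, square and triangle) for the first gene (blue) and second gene (orange) of 12 pairs. In 9 pairs the second gene lies at or under 2.29 and the first at or above 92.2, whereas Cox7a2l, Atp5g1 and Atp5g2 lie within 3.70-fold of their partners.

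In the other 3 pairs both members were abundant. Atp5g1, Atp5g2 and Atp5g3 encode the same mature subunit c with different import sequences. Atp5g3 supplied 62.7% ± 0.310 of their summed CPM per kilobase, Atp5g1 20.2% ± 0.213 and Atp5g2 17.1% ± 0.100 (SD, n = 3). Atp5g3 was 3.11-fold above Atp5g1 and 3.66-fold above Atp5g2, with library ranges of 3.07 to 3.16 and 3.62 to 3.70. The share of windows found in other genes was 66.0% for Atp5g1 and 87.4% for Atp5g2 but 0 for Atp5g3, and its part in these ratios was not tested. Cox7a2l, which links complexes III and IV into supercomplexes, was 1.52-fold below Cox7a2 per kilobase, although in CPM it was the higher of the pair (112 ± 0.924 against 105 ± 4.38, SD, n = 3). For each of the 6 pairs with all counts above 3, an exact two-sided sign-flip permutation test gave p = 0.25, adjusted p = 0.25 over the 6, the smallest that 3 libraries allow.

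Promoters are shown for Cox6a1 and Cox8a, general forms, and Cox8b, with 1 count in all, because these genes lie at opposite ends of the levels above. RefSeq promoters on GRCm38.p6, 250 bases before to 50 after a start site, were found for 67 of the 89 nuclear genes. Words of known factors were searched on both strands. NRF1 was searched as GCGCATGCG, the ETS family, which includes the Gabpa product, as CCGGAAG, and YY1 as AAGATGGC. The GC box was searched as GGGCGG, and the letters for the core element named the TATA box were TATAAA. Capitals mark matches. The promoters lie at chr5:115348909-115349208 for Cox6a1, chr19:7217567-7217866 for Cox8a and chr7:140900397-140900696 for Cox8b, all on the minus strand.
Cox6a1: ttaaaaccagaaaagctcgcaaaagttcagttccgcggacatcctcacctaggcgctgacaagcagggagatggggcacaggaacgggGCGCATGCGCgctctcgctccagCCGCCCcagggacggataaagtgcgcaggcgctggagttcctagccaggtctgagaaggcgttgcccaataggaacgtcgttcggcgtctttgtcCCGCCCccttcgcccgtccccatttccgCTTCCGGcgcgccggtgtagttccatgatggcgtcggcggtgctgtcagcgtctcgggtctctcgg
Cox8a: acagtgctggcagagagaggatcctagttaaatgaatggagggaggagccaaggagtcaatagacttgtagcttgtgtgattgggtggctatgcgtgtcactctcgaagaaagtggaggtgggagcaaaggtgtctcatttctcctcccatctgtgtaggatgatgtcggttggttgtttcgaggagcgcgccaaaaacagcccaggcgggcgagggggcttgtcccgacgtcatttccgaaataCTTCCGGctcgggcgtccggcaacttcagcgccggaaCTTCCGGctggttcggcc
Cox8b: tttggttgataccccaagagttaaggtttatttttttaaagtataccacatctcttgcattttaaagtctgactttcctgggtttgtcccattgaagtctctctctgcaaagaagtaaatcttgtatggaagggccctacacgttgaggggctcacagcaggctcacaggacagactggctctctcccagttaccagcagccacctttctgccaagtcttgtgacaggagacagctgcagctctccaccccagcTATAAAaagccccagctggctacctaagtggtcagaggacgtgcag
Cox6a1 held an NRF1 word on each strand, overlapping each other, 1 ETS word and 2 GC boxes, Cox8a held 2 ETS words, and Cox8b held only a TATA box. The words did not follow level throughout. Atp5b, at 920 CPM per kilobase, and Atp5g3, at 427, held no NRF1, ETS or YY1 word. Atp5l, at 83.4, held 1 NRF1 and 2 ETS words. Over the 62 promoters of general subunits, 15 (24.2%) held the ETS word, against 8.86% of all 32851 promoters in the table. The NRF1 word occurred in 8 (12.9%) against 1.75%, the YY1 word in 8 (12.9%) against 2.75%, the GC box in 24 (38.7%) against 35.7%, and the TATA box in 5 (8.06%) against 13.6%. Of 4 tissue-isoform promoters, none held the NRF1, ETS or YY1 word, 2 held a GC box and 2 a TATA box. These are matches of letters, not sites. Median GC content was 57.8% for the subunit promoters, 52.7% for all promoters and 50.8% for the tissue-isoform promoters. The part of GC content in these shares was not tested.

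Mitochondrial genes fell into abundant and nearly uncounted ones. Per kilobase, mt-Nd1, a core membrane subunit of complex I, had 1921, 1498 and 1779 in replicates 1 to 3. Then came mt-Atp8 of ATP synthase at 1166, 905 and 1198, mt-Co1, the catalytic subunit of complex IV, at 856, 666 and 874, mt-Nd2 at 844, 625 and 780, and mt-Cytb, the cytochrome b of complex III, at 767, 601 and 786. All of these were lowest in replicate 2. The place of mt-Atp8 rests on division by its length of 204 bases. In CPM it had 222 ± 32.8, below mt-Nd5 at 426 ± 67.4 and near mt-Atp6 at 186 ± 43.3 (SD, n = 3). Overlap with another gene covers 21.1% of mt-Atp8, so its level per kilobase is uncertain. The middle of the range held mt-Atp6 at 274 ± 63.5, mt-Nd5 at 233 ± 36.96, mt-Nd6 at 168 ± 24.6 and mt-Nd4 at 167 ± 26.7 (SD, n = 3), and the last pair did not differ beyond the spread.

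The other 4 were nearly uncounted. The raw counts of mt-Co2 were 156, 121 and 192, against 66053, 51022 and 59920 for mt-Co1, which encodes the subunit it binds in complex IV. For mt-Co3 they were 150, 109 and 148, for mt-Nd3 20, 15 and 31, and for mt-Nd4l 5, 6 and 8. All 4 lie in that part of the mitochondrial genome that the pseudogene block on chromosome 1 copies. The share of 50-base windows of each that also occur in another annotated gene was 100% for mt-Co2, 99.9% for mt-Co3, 98.0% for mt-Nd3 and 98.8% for mt-Nd4l. Only mt-Atp6 had as high a share, 99.5%, and it kept 10493, 6767 and 9435 counts. The 8 genes with smaller shares, from 0 to 62.2%, ranged from 167 to 1733 CPM per kilobase. These shares count annotated transcripts only, and copies without annotation were not searched. mt-Atp8, between mt-Co2 and mt-Atp6, had no window in an annotated gene, but the copies of its neighbors on chromosome 1 are 233 bases apart (chr1:24614652-24614884), the same distance as between the copied stretches in the mitochondrial genome, and that stretch of chromosome 1 was not searched. mt-Atp6 overlaps mt-Atp8 and mt-Co3 over 6.46% of its length.

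**Figure D3:**
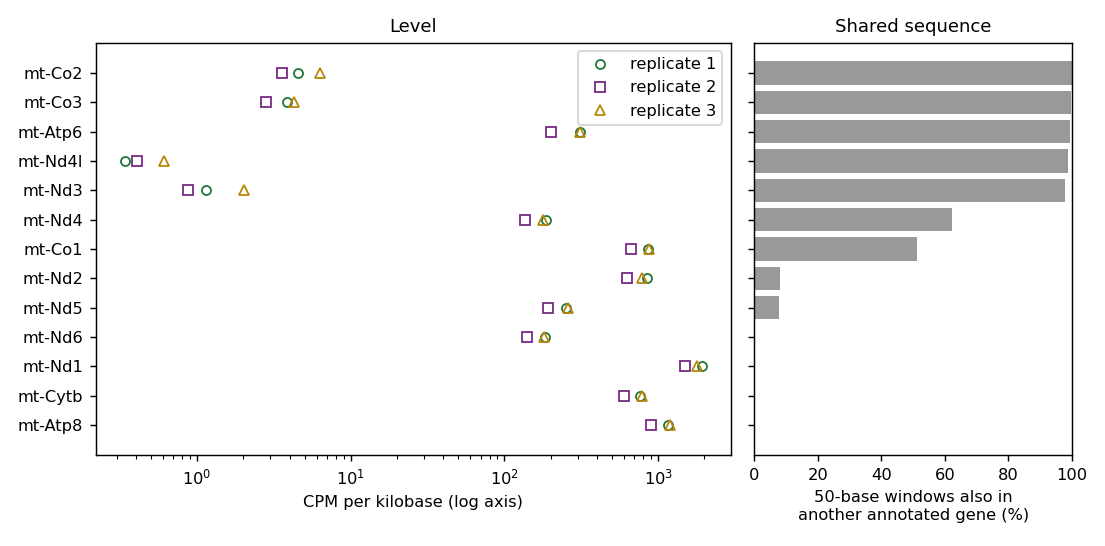
Left, CPM per kilobase (log axis) of the 13 mitochondrial genes in 3 libraries; right, the percent of 50-base windows of each mRNA that also occur in another annotated gene. Of the 5 genes at 98.0% or more, 4 lie at or under 6.32 in every library and mt-Atp6 between 200 and 312, while genes with smaller shares lie at or above 136.

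The rows of the copies themselves held few counts. The 7 annotated copies on chromosome 1 had 429, 425 and 510 counts in all, or 9.55 ± 1.68 CPM (SD, n = 3). Gm28661, the copy of mt-Co2, had 62, 46 and 44 counts, and Gm28437, the copy of mt-Co3, 112, 117 and 130. Gm28438 had 120, 127 and 157 counts, above mt-Nd3 itself in every library. How reads that match several places were handled is not given in the sources used here, and its part in these low counts was not tested. The values of mt-Co2, mt-Co3, mt-Nd3 and mt-Nd4l, and in part those of mt-Atp6, mt-Nd4 and mt-Co1, are therefore uncertain as levels of RNA.

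Between the genomes, the median mitochondrial gene stood above the median nuclear one, with 251, 191 and 258 CPM per kilobase against 104, 109 and 104. The log2 ratio was 1.27, 0.81 and 1.31 in replicates 1 to 3, a mean of 1.13 ± 0.28 (SD, n = 3) or 2.19-fold, and an exact two-sided sign-flip permutation test gave p = 0.25, the smallest possible. The size depends on the genes and the length used. Without the 5 genes copied in full the log2 ratio was 2.79 ± 0.25 (SD, n = 3), or 6.91-fold. Coding length leaves 85 nuclear genes, since the pseudogenes have none. With it the log2 ratio was 0.53, 0.03 and 0.46 in replicates 1 to 3, or 1.26-fold, so that replicate 2 showed almost no difference. Counted per kilobase of windows found in no other gene, mt-Nd4 was at 458 instead of 167 and mt-Co1 at 1688 instead of 799, on the assumption that shared windows gave no count. Polyadenylated RNA was selected, and how well this captures mitochondrial mRNAs was not tested.

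Library differences were tested by a chi-square on counts with 2 degrees of freedom over the 13814 genes that reached 10 counts in each library, which measures spread beyond counting error. Of these, 43.9% passed a Benjamini-Hochberg adjusted p of 0.05. Of the 93 OXPHOS genes tested, 71 passed, 59 of 81 nuclear and 12 of 12 mitochondrial. OXPHOS genes are well counted, which favors small differences, and 59.6% of all genes with a mean from 25 to 400 CPM passed, against 56 of 71 nuclear OXPHOS genes in that range (78.9%). Between replicates 1 and 3 alone, 37 of 93 passed, against 12.1% of all genes.

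The 5 largest chi-square values belonged to mitochondrial genes: 2545 for mt-Nd1, 2500 for mt-Co1, 1732 for mt-Nd2, 1610 for mt-Cytb and 1038 for mt-Nd5. All 12 tested mitochondrial genes were lowest in replicate 2, where 20.0% of all genes passed and were lowest. Their log2 difference in replicate 2 from the mean of the others ran from -0.81 for mt-Nd3 to -0.30 for mt-Nd1.

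Nuclear OXPHOS genes leaned the other way. Of the 59 that passed, 42 were highest in replicate 2 and 5 were lowest there. The 42 are 51.9% of the 81 tested, against 17.6% of all genes that passed and were highest in replicate 2. From 25 to 400 CPM these shares were 56.3% of nuclear OXPHOS genes and 24.6% of all genes. With edgeR's TMM sizes, 62 of the 81 passed and 51 of these were highest in replicate 2. The differences were small, with a median log2 value of 0.07 and a range from -0.16 to 0.30, against a median of -0.01 over all genes tested. By complex the medians were 0.11 for complex I, 0.07 for complex III, 0.06 for complex IV, 0.05 for complex V and 0.01 for complex II. Uqcrq, a small subunit of complex III, had 161, 196 and 165 CPM (adjusted p = 2.87e-43 by the chi-square test), and Atp5d had 206, 237 and 204 CPM (adjusted p = 3.97e-31). Uqcrq had the largest chi-square value of the nuclear genes. By contrast Atp5b had 1750, 1764 and 1776 CPM (adjusted p = 0.027), a range of 1.01-fold, and Sdha, Sdhc and Sdhd did not pass.

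GC content moved with this difference. Across the 81 nuclear genes, which are not independent replicates, Pearson's r with the GC content of the mRNA was 0.46 and Spearman's rho 0.42, and over 13770 genes of the files they were 0.36 and 0.50. With log2 mRNA length, r and rho were -0.26 and -0.28 for the 81 genes, and -0.07 and -0.16 for the 13770. Median mRNA length was 745 bases for the 81 genes, against 2715.5 for all genes tested. The median log2 difference rose from 0.01 in the 27 nuclear OXPHOS genes with the lowest GC content (49.3% or less) to 0.07 in the next 27 and 0.14 in the 27 with the highest. All genes in the same GC ranges had medians of -0.09, 0.01 and 0.08. The shares that passed and were highest in replicate 2 were 29.6%, 51.9% and 74.1% of these OXPHOS genes. For all genes in the same ranges they were 3.19%, 14.8% and 39.9%. The mitochondrial genes have low GC content, with a median of 36.5%. The part of GC content or of mRNA length in the differences of either genome was not tested.

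**Figure D4:**
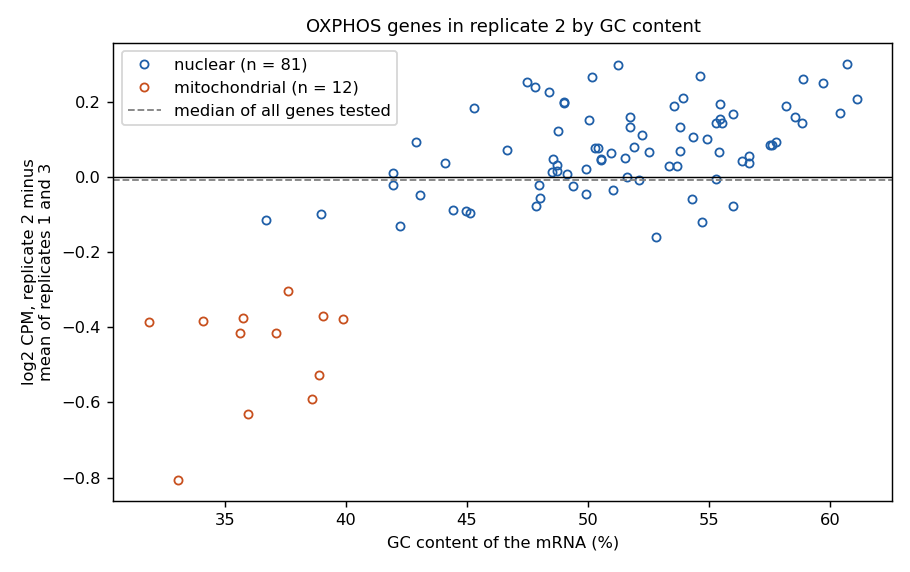
Difference in log2 CPM between replicate 2 and the mean of replicates 1 and 3, against GC content of the mRNA, for 81 nuclear and 12 mitochondrial OXPHOS genes that reached 10 counts in each library; the dashed line is the median of all genes tested, -0.01. The mitochondrial genes lie between -0.81 and -0.30, and the nuclear genes between -0.16 and 0.30.

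Assembly factors lay below most subunits, whereas some carriers lay above them. Of 47 assembly factors, which build the complexes but stay out of them, 44 had at least 1 CPM in every library, with a median of 21.9 CPM, against 90.3 for the nuclear OXPHOS genes. The exceptions were Sco2 and Pet117 with no count in any library and Cox20 with 21, 21 and 12 counts. Of 45 tested, 16 passed the chi-square test, with 43.9% of all genes doing so. Of 18 electron carriers, coenzyme Q enzymes, carriers and regulators of ATP synthase, 17 had at least 1 CPM in every library, and 9 of 17 passed (52.9%). The adenine nucleotide translocators Slc25a4 and Slc25a5 had 735 ± 13.9 and 536 ± 10.7 CPM, and the phosphate carrier Slc25a3 724 ± 8.47 (SD, n = 3). Cycs, the somatic cytochrome c, had 68.2 ± 3.83 CPM (SD, n = 3), and the testis form Cyct had no count, as with the testis form Cox8c.

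All 19 genes for mitochondrial DNA upkeep, transcription and translation had at least 1 CPM in every library, and 12 passed (63.2%, against 43.9% of all genes and 59.6% of those from 25 to 400 CPM). Lrpprc, which stabilizes mitochondrial mRNAs, was the highest with 300, 276 and 291 CPM, and Tfam, which packages mitochondrial DNA, had 61.9, 56.7 and 64.9. Both were lowest in replicate 2, as were 10 of the 19, while 5 were highest there, such as the mitochondrial RNA polymerase Polrmt with 69.0, 71.7 and 65.4. Of 12 regulators, all had at least 1 CPM in every library and 7 passed (58.3%, near the same shares of all genes). Nrf1, Gabpa and Yy1, whose words were searched above, had 56.8 ± 0.736, 101 ± 10.3 and 107 ± 5.04 CPM, and the coactivator Ppargc1a 12.0 ± 0.889 (SD, n = 3). The 15 glycolytic enzymes, the other main source of ATP, summed to 7494 ± 167 CPM, against 10690 ± 340 for the 89 nuclear OXPHOS genes (SD, n = 3), and 11 of 15 passed (73.3%). These sums cover unlike numbers and lengths of genes and are not a measure of either source. Sequence shared with other genes was not searched for the enzymes.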

How the data were processed

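For each of 3 KO-actin libraries the authors deposited the unnormalized read counts of every Ensembl gene. The submitters' processing notes name Trimmomatic, FastQC, HISAT2, HTSeq and the builds mm10 and GRCm38; versions, strand setting, read length and the handling of multiple matches are not given in the sources used here. Symbols, transcripts and coordinates came from GENCODE M21 on GRCm38. The members, lists and tests were chosen with earlier results of these data known.

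CPM used total counts. Length was that of the principal transcript (best APPRIS rank, then coding, curated RefSeq match, best support level, shortest), a rule chosen after lengths were seen. Shared sequence was the share of 50-base windows of an mRNA found in transcripts of other genes that do not overlap it. Overlap with exons of other genes, on either strand, is not part of that share. It exceeded 10% of the mRNA in 15 nuclear genes. Genes were named if mitochondrial, in complex II, in an isoform pair, among the 3 highest or lowest nuclear genes of a complex, among the 5 largest chi-square values, at or under 3 counts throughout, or Actb; others were named after their values were seen. The chi-square test was tested on data simulated with counting error only, where the genes changed were recovered in part at small folds. These simulated data lack the further spread seen between the real libraries, so they cannot gauge the test under it.

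Alternatives were TMM sizes (edgeR 4.0.16), DESeq2 1.42.0 size factors, other filters, lengths and member sets, and leaving out each replicate. R 4.3.3, Python 3.11.15, pandas 2.3.3, numpy 2.4.6, scipy 1.17.1 and matplotlib 3.10.9 were used.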

Additional observations from a re-analysis of the deposited data

Results flagged for a closer look

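Counts were found in 7 rows outside the name rule, the annotated nuclear copies of mitochondrial genes on chromosome 1, above 3 counts in every library. Their mean levels were 2.23 CPM for Gm10925 (copy of mt-Atp6), 0.215 for Gm29216 (part of mt-Co1), 1.05 for Gm28661 (mt-Co2), 2.51 for Gm28437 (mt-Co3), 2.83 for Gm28438 (mt-Nd3), 0.4998 for Gm28439 (part of mt-Nd4) and 0.208 for Gm10222 (mt-Nd4l). Whether these reads came from chromosome 1 or from mitochondrial RNA was not tested.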

How the results depend on the processing

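No paired analysis was possible because all libraries belong to 1 condition. TMM and DESeq2 sizes left the summed levels within 1 SD, and 0 of 204 single-gene values moved by more. All of these are means over the libraries, in which the scaling factors largely cancel, so little change was possible. Differences between libraries did respond. Nuclear genes that passed and were highest in replicate 2 numbered 42 with total counts, 51 with TMM sizes and 50 with DESeq2 sizes. The nuclear medians of complexes I to V, in that order, were 64.4, 115, 100.04, 94.7 and 132 in CPM with no division by length. Per kilobase of coding length they were 158, 167, 266, 355 and 330, and per kilobase of all exons joined 47.1, 55.5, 78.8, 43.2 and 70.7, so the order of the complexes depends on the length used. The coding-length medians of complexes I and IV also leave out the pseudogenes, which have no coding length. Without pseudogenes, associated factors and genes sharing over 10% of windows, the medians of complexes I, III, IV and V were 93.5, 121, 2.11 and 195; the value for complex IV is then that of Cox6a2, a low isoform. Without pseudogenes, associated factors and tissue isoforms, complex IV was at 205. These sets and the coding and joined-exon lengths were chosen after seeing the data. The log2 ratio of mitochondrial to nuclear medians stayed positive, from 0.34 with coding length to 2.79 without the 5 genes copied in full, and from 1.04 to 1.29 without 1 replicate. Of 36 isoform values 1 reversed, Cox7a2 over Cox7a2l, at -0.10 in CPM. Without 1 replicate, 37 to 62 OXPHOS genes, 31 to 52 nuclear and 6 to 12 mitochondrial, passed the chi-square test, the lowest each time without replicate 2. Of all genes, 33.1% passed without replicate 1, 12.1% without replicate 2 and 34.0% without replicate 3, so their share was lowest there too.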
